A study of Mus musculus with 11 samples.

Results

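Tumors grown from mutant oviductal organoids of the mouse, called TBP tumors here as in the study, were compared with normal oviduct tissue over all genes. The rule took every library of these groups, 6 tumors and 3 tissue samples, which are 9 of the 27 libraries of the series, and the count table held 18305 genes. The oviduct tissue was whole, wild-type organ of young adult female C57BL/6 mice. The tumors arose under the skin of female NSG mice, an immunodeficient strain that carries the Prkdc scid mutation and lacks Il2rg, after injection of oviductal organoid clones in which CRISPR/Cas9 had targeted genes including Trp53 and Brca1. The clones came from organoids of mice on a B6J.129 background with a Cas9-P2A-EGFP cassette in the ROSA26 locus and were selected with Nutlin-3a, which stabilizes p53 and so favors cells without it. A pair of clones was transplanted per genotype, each mouse was injected in both flanks, and the labels do not say which clone or mouse gave which tumor, so tumors may share an animal or a clone. The labels do not say either whether the tissue samples came from separate mice, so p-values measure the spread between these samples. Tumors and tissue therefore differed in mutation, in passage through culture, in anatomical site and in host strain at once, and these cannot be told apart. Both were extracted with Trizol and DNaseI and sequenced by CEL-Seq2, which tags the 3′ end of each transcript. The comparison asks how far the tumors lie from the organ that their cells of origin came from.

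The oviduct is a muscular tube whose folded inner lining holds secretory cells and multiciliated cells. Secretory cells release the glycoproteins that bathe the egg and the embryo, chief among them oviductin, and multiciliated cells move both along with beating cilia built on dynein arms. The human counterpart of this epithelium, in the fallopian tube, is a recognized origin of high-grade serous ovarian carcinoma, a disease in which p53 is lost in nearly every case. A tumor library holds the injected mutant cells together with stroma, vessels and blood cells of the host, and a tissue library holds epithelium, smooth muscle, stroma and vessels of the organ.

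The libraries held 825025 to 1561178 counts in tissue and 936348 to 3083507 counts in tumors. Levels are given in CPM, read counts divided by a library total that was scaled by the trimmed mean of M values (TMM), and 3 counts in 1 library correspond to 0.987 to 4.26 CPM. The libraries separated by group. On a regularized log scale, distances between a tumor and a tissue sample ran from 103.5 to 125.2 over 18 pairs, against 38.6 to 85.4 over the 15 pairs of tumors and 31.4 to 43.0 over the 3 pairs of tissue samples. Tumors 1 and 3 were each other's nearest tumor, as were tumors 2 and 4 and tumors 5 and 6. The labelled organ was borne out by its defining markers, since Ovgp1, which encodes oviductin, took 6.80 to 10.5% of all counts in tissue and 0.000459 to 0.00244% in tumors. The EGFP of the injected cells could not be used to trace them, because its row held 3 counts over all 27 libraries and 0 in the tumors. The mitochondrial ribosomal RNA mt-Rnr2, whose share can move with RNA quality, took 5.91 to 7.98% of counts in tissue and 0.647 to 0.778% in tumors (log2 fold change -3.62, SE 0.15, adjusted p = 4.26e-07). The methods of the study report the same RNA integrity value for all samples. The part of this difference in the results below was not tested. The tumors also held transcripts of skeletal muscle in widely differing amounts, from 124 CPM summed over a list of 16 genes in tumor 3 to 20451 CPM in tumor 5. Counts are therefore also given without tumors 5 and 6 for all genes and for several of the lists.

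After low-count genes were left out, 10827 genes were tested with edgeR's quasi-likelihood test and Benjamini-Hochberg adjustment over all of them. At an adjusted p under 0.05, 2561 genes (23.7%) were higher in tumors and 2425 (22.4%) were lower, so that 46.1% of genes tested were called. The median log2 fold change of all genes tested was 0.08. With library totals alone as the scale that median was 0.40 and the split was 3679 higher against 1778 lower, so higher genes made up 67.4% of calls in place of 51.4%. Of the genes called, 1994 were higher and 1883 lower by more than 1 on the log2 scale, and 121 were higher and 260 lower by more than 5. All 6 tumors lay above all 3 tissue samples for 22.5% of genes tested and below them for 22.5%. Against this background, where nearly every second gene was called, the gene lists below are described by their counts and medians, and the shares of 23.7% and 22.4% are what any list has to be read against. Some genes stand in more than 1 list.

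**Figure D1:**
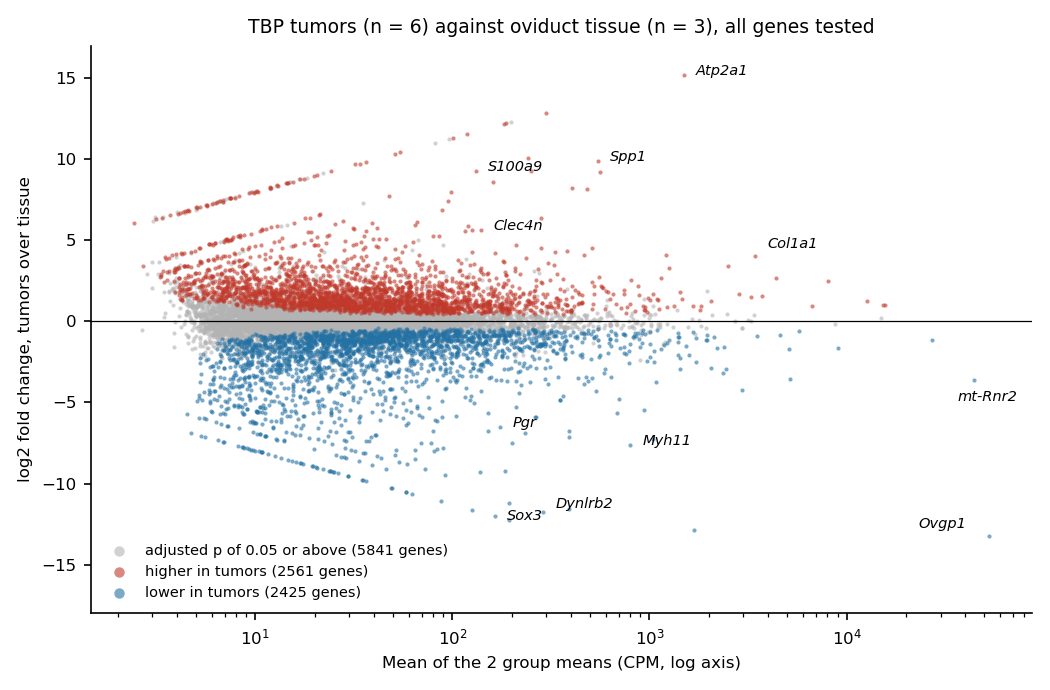
Log2 fold change of tumors over tissue (vertical axis) against the mean of the group means in CPM (log axis) for the 10827 genes tested, 1 point per gene, with genes called higher in red, genes called lower in blue and the others in gray. Ovgp1 and mt-Rnr2 sit at the lower right as abundant tissue transcripts at -13.25 and -3.62, and Atp2a1 of skeletal muscle sits at the top. Genes without a count in 1 group, Atp2a1 among them, have fitted heights that are no measured fold.

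Most of the tested genes of the oviductal secretory cell fell in the tumors. Of 12 members tested in the secretory list, 8 fell and 0 rose, with a median log2 fold change of -2.64. In a whole-tissue library, fewer cells of a type and less RNA per cell cannot be told apart, and this holds for every result below. Ovgp1, the oviductin gene, stood at 116924, 123100 and 77854 CPM in the tissue samples and at 4.43 to 22.3 CPM (median 9.29) in tumors (log2 fold change -13.25, SE 0.53, adjusted p = 3.70e-07). The groups lay far apart, and the highest tumor, tumor 3, was still at 22.3 CPM. Pgr, the progesterone receptor, was at 245, 142 and 649 CPM in tissue against 0 to 14.1 CPM (median 1.4) in tumors (log2 fold change -6.49, SE 0.82, adjusted p = 1.89e-04). Tissue sample 3 was the highest, and tumor 1, at 14.1 CPM, stood above the other tumors without reaching the tissue range. Esr1, the estrogen receptor, was at 174, 204 and 221 CPM in tissue and 3.79 to 62 CPM (median 23.7) in tumors (log2 fold change -2.85, SE 0.66, adjusted p = 0.00568).

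The transcription factors that mark the Müllerian lineage fell as well, and unevenly among the tumors. Pax8, used in pathology to recognize tumors of this lineage, was at 190.5, 163 and 205 CPM in tissue and at 25.9, 0, 42.1, 0, 23 and 3.16 CPM in tumors 1 to 6 (log2 fold change -3.46, SE 0.88, adjusted p = 0.00923). Tumors 2 and 4 had no Pax8 count, and tumors 1, 3 and 5 kept between 23 and 42.1 CPM. Sox17, a partner of Pax8 in the oviduct, was at 859, 759 and 788 CPM in tissue and 125, 6.25, 243, 20, 9.21 and 16.4 CPM in tumors 1 to 6 (log2 fold change -3.50, SE 0.98, adjusted p = 0.0149). Tumors 1 and 3 again held the most, and no tumor reached the tissue. Pax2, which is silenced early in precursor lesions of the fallopian tube, was at 25.1, 21.3 and 28.8 CPM in tissue and at most 0.893 CPM in a tumor (ratio of tissue to tumors 94.3, 95% counting interval 32.3 to 457, adjusted p = 3.22e-05). A ratio against 1 to 3 counts stands in place of a fold change here and below, and its interval covers counting error only.

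A further group of secretory products was retained by tumors 1 and 3. Ltf, lactoferrin, was at 1208, 1051 and 386 CPM in tissue and at 1180.2, 8.04, 2894, 90.1, 0.329 and 14.5 CPM in tumors 1 to 6, so the groups overlapped widely (adjusted p = 0.888). C3, a complement factor that the oviduct secretes, was at 1527, 1118 and 821 CPM in tissue and 1097, 179, 2311, 136, 137 and 84.1 CPM in tumors 1 to 6 (adjusted p = 0.514). For both genes tumor 3 lay above every tissue sample, tumor 1 lay within the tissue range, and the other tumors lay below it. Ltf and C3 made up most of the summed secretory level of tumor 3, which was 5898 CPM against 121312, 126696 and 81094 CPM in the tissue samples. Muc1, a cell surface mucin, and Lcn2, lipocalin 2, had the same order, with 164 and 252 CPM of Muc1 and 5392 and 12425 CPM of Lcn2 in tumors 1 and 3. Muc1 was at 22.9, 26.9 and 13.1 CPM and Lcn2 at 1192, 1133 and 200.1 CPM in tissue, and neither passed the test over all tumors (adjusted p = 0.413 and 0.419). Wfdc18, a small secreted protease inhibitor, was different, at 3063, 2481 and 639 CPM in tissue and no more than 47.2 CPM in any tumor (log2 fold change -7.26, SE 1.16, adjusted p = 7.51e-04).

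The genes of the motile cilium fell nearly as a block. The table held 72 listed genes and 53 of them were tested. Of these 51 fell, 0 rose, and the median log2 fold change was -6.26, or -6.19 with genes absent from all tumors set at their bound. Summed over the list, the tissue samples held 4618, 5824 and 3509 CPM and the tumors 80.1 to 203 CPM (median 129). Among all 72, 16 had no count in any tumor, 6 of them among those tested, while no member was at 0 in tissue. The members that did not pass were A330021E22Rik and Stk33. Cultured oviductal organoids of the same series, which are epithelium without stroma, held 487 to 977 CPM on the same scale. The Cas9-GFP lines, unedited organoids with the Cas9 cassette, held 158 to 421 CPM, the TBP clones 78.4 to 153 CPM and organoids grown from tumors 72.7 to 115 CPM, and each of these 3 groups overlapped the range of the tumors.

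For the cilium genes the promoter letters are shown because the members moved together and because RFX proteins, which bind an element called the X-box, switch on many of them. The RefSeq promoters used here reach from 250 bases before to 50 bases after the start of each gene on GRCm38.p6, and 41 of the 51 genes that fell had one. The X-box was searched on both strands as GTTNCCNNGGNAAC and its half-site as GTTGCC. The half-site lies inside the longer motif wherever the first free letter is G or, on the other strand, the last free letter is C. The half-site stood in 19 of 41 promoters (46.3%) and in 29 of 59 of all listed members in the table (49.2%), against 15.0% of the 8631 tested genes with a promoter and 14.1% of all 27025 promoters. The full X-box stood in 2 of 41 (4.88%), against 0.637% and 0.529%. Each window below starts upstream of the match and is written in the direction of its gene, with the match in capitals. Ccdc151 and Pifo carry the full motif, and the match of Pifo ends in the half-site on the other strand. Dynlrb2 and Sntn carry the half-site, and Hydin carries it on the other strand. A match describes these letters and does not show that a factor bound there.
Ccdc151 (chr9:22002635-22002708, minus strand): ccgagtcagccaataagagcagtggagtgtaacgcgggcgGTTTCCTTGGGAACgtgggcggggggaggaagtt
Pifo (chr3:106001498-106001557, minus strand): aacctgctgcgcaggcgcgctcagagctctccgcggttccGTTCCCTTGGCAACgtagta
Dynlrb2 (chr8:116504924-116505009, plus strand): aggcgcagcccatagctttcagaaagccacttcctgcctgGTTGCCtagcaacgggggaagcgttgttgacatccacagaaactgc
Sntn (chr14:13670770-13670855, plus strand): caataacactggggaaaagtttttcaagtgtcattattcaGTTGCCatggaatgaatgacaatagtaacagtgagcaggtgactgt
Hydin (chr8:110266924-110266976, plus strand): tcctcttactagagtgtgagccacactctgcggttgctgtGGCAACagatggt

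The regulators of ciliation fell and were still counted in most tumors. Foxj1, the transcription factor that commits a cell to motile cilia, was at 189, 228 and 105 CPM in tissue and 21.4, 0, 25.6, 5.01, 0.987 and 1.9 CPM in tumors 1 to 6 (log2 fold change -4.15, SE 0.86, adjusted p = 0.00328). Tumors 1 and 3 were the highest, at 21.4 and 25.6 CPM, and tumor 2 had no count. Rfx2 fell too (log2 fold change -2.97, SE 0.34, adjusted p = 1.03e-04), from 114, 119 and 85 CPM in tissue to 6.32 to 25 CPM (median 12.8) in tumors, and so did Rfx3 (log2 fold change -2.31, SE 0.38, adjusted p = 9.36e-04), from 51, 66.7 and 53.6 CPM to 5.01 to 21.1 CPM (median 10.5). Both encode RFX proteins, and each was still counted in every tumor.

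The structural genes were at or near 0 in the tumors. Dynlrb2, a dynein light chain, was at 565, 654 and 516 CPM in tissue and had 1 count in tumor 1 and none in the other tumors (ratio of tissue to tumors 6530.1, 95% counting interval 1172 to 257926, adjusted p = 2.79e-07). Sntn, which encodes a protein of the ciliary tip, was at 221, 362 and 173 CPM in tissue and at 0 in all tumors, at least 948-fold lower against a floor of 3 counts over the tumors (adjusted p = 6.55e-05). The bounds were at least 439-fold for Dnahc5, an outer dynein arm heavy chain, from 107, 172 and 71.9 CPM, and at least 274-fold for Hydin, a protein of the central pair of microtubules, from 67, 93.6 and 57.5 CPM. Tissue sample 2 was the highest for all 4 of these genes, and each of the tissue samples stood far above the floor. Dnali1, an axonemal dynein light intermediate chain, was at 54.1, 66.7 and 51 CPM against at most 0.72 CPM in a tumor (ratio of tissue to tumors 215, 95% counting interval 73.7 to 1045, adjusted p = 8.15e-06). Pifo, which acts at the ciliary base, was at 119, 129 and 105 CPM and 0 to 4.32 CPM (median 0.446) (log2 fold change -6.27, SE 0.69, adjusted p = 8.88e-05), and Ccdc151, needed to dock dynein arms, was at 14.5, 28.4 and 15.7 CPM and 0 to 1.13 CPM (median 0) (ratio of tissue to tumors 110.2, 95% counting interval 30.5 to 909.6, adjusted p = 1.35e-04). Tppp3, a microtubule-associated protein found in other cells too, kept 12.6 to 45.6 CPM (median 30.1) in tumors from 728, 838 and 536 CPM in tissue (log2 fold change -4.62, SE 0.38, adjusted p = 2.26e-05), and all 6 tumors lay below the tissue samples.

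**Figure D2:**
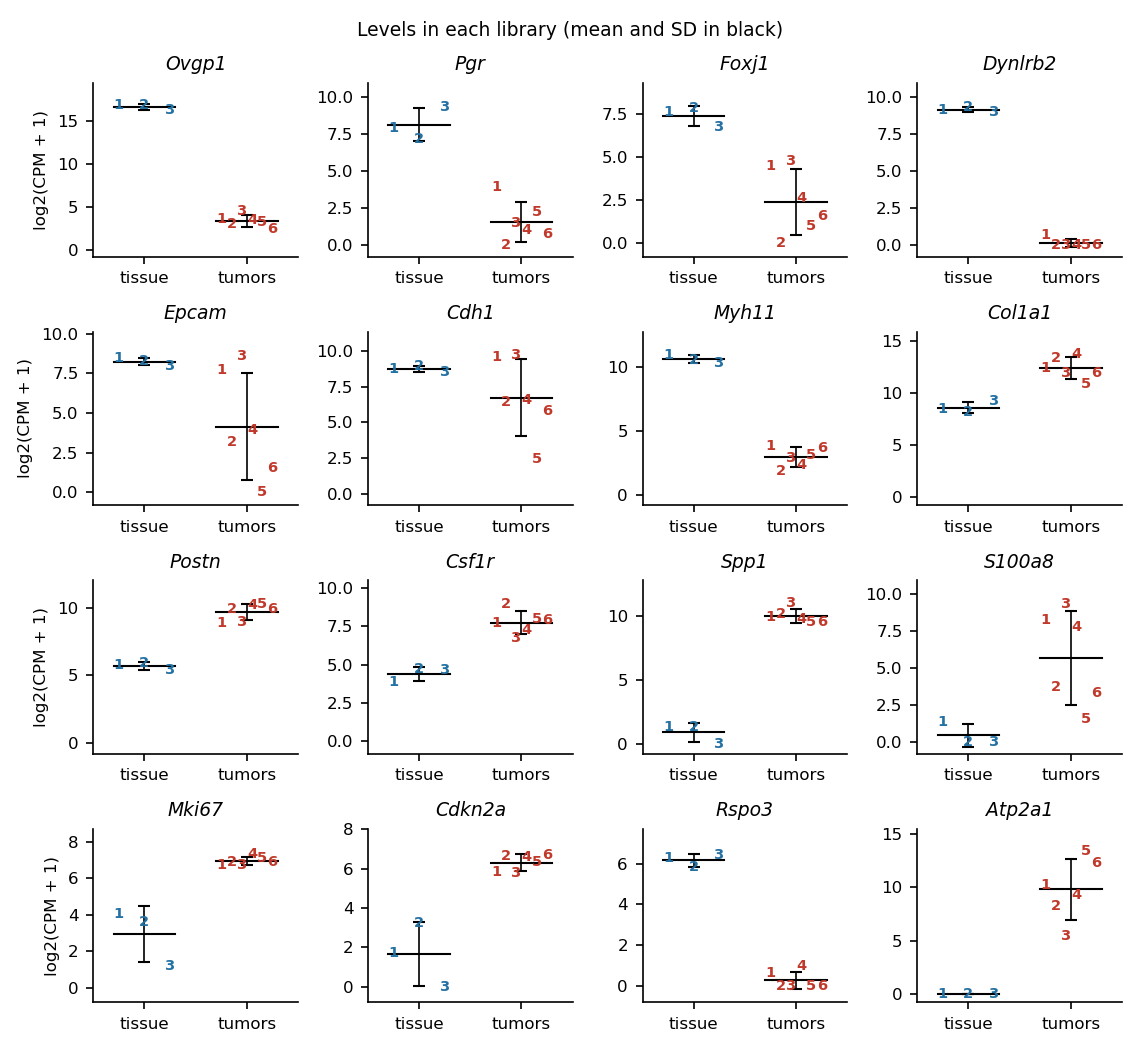
Levels of 16 genes in each library as log2(CPM + 1), with each library drawn as its number (tissue samples 1 to 3 in blue, tumors 1 to 6 in red) and the mean and SD of each group in black. Ovgp1, Pgr, Foxj1, Dynlrb2, Myh11 and Rspo3 are lower in every tumor than in any tissue sample, Col1a1, Postn, Csf1r, Spp1, Mki67 and Cdkn2a are higher, and Epcam and Cdh1 are spread over the whole range, with tumors 1 and 3 above the other tumors.

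General epithelial genes behaved otherwise. Of 36 members tested among keratins and junction genes, 4 fell and 0 rose, and the median was -0.84. The summed level split the tumors, and tumors 1 and 3 held 3921 and 5703 CPM against 3939, 3939 and 3185 CPM in tissue, while tumors 2, 4, 5 and 6 held 694, 721, 615 and 650.1 CPM. Epcam, an adhesion molecule of nearly all simple epithelia, was at 349, 313 and 255 CPM in tissue and at 205, 8.04, 389, 14, 0 and 1.9 CPM in tumors 1 to 6 (log2 fold change -1.55 ± 1.41 SE, adjusted p = 0.391). Tumor 3 exceeded the tissue, tumor 1 lay below it, and tumor 5 had no count. Cdh1, E-cadherin, was at 426, 492 and 374 CPM in tissue and 776, 83.9, 829, 92.1, 4.28 and 55 CPM in tumors 1 to 6 (adjusted p = 0.746). Here tumors 1 and 3 both exceeded every tissue sample, and tumor 5 was the lowest. Cd24a, a surface glycoprotein of epithelial cells, had the same order, with 1301 and 2314 CPM in tumors 1 and 3, 85.7 to 205 CPM in the others and 1886, 1872 and 1340.2 CPM in tissue (adjusted p = 0.286).

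Krt8 and Krt7, keratins of simple epithelium, did not pass either. Krt8 was at 771, 823 and 669 CPM in tissue and 564, 154, 842, 45.1, 217 and 199.8 CPM in tumors 1 to 6 (adjusted p = 0.181), and Krt7 was at 140.2, 126 and 139 CPM and 557, 2.68, 769, 20, 62.9 and 96.8 CPM (adjusted p = 0.573). Tumors 1 and 3 were the highest for both keratins. The members that fell included Pkp2, a desmosomal plaque protein, at 56.4, 55.3 and 39.2 CPM in tissue and 5.01 to 20.2 CPM (median 13.2) in tumors (log2 fold change -1.95, SE 0.35, adjusted p = 0.00147). Cldn3, a tight junction claudin, was at 61.7, 55.3 and 41.8 CPM and 0 to 23.8 CPM (median 0.949) (log2 fold change -2.95, SE 1.04, adjusted p = 0.039), but the adjusted p was 0.0526 to 0.118 when any 1 of the tissue samples or tumor 2, 4 or 6 was left out.

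Keratins of stratified epithelium differed widely among the tumors. Of 17 members tested 2 rose and 0 fell, with a median of 3.53, and without tumors 5 and 6 the count was 11 higher. The summed level was 383, 623 and 127 CPM in the tissue samples and 769, 2686, 3099, 5569, 205 and 126 CPM in tumors 1 to 6. In culture the oviductal organoids held 449 to 653 CPM and the Cas9-GFP lines 1258 to 2405 CPM. Krt5, a basal cell keratin, was at 99, 224 and 0 CPM in tissue and 110.3, 340.2, 285, 779, 0 and 0 CPM in tumors, and its partner Krt14 was at 30.5, 95 and 0 CPM and 59.6, 357, 198, 787, 0.987 and 44.3 CPM (adjusted p = 0.592 and 0.209). Tumor 4 was the highest for both, and tissue samples 1 and 2, but not 3, held them too. Krt6a, a keratin of stressed epidermis, was at 6.86, 12.8 and 0 CPM and 15.8, 248, 156, 619, 0 and 0 CPM (adjusted p = 0.103), and Trp63, the basal cell transcription factor, at 1.52, 1.42 and 0 CPM and 0.563, 17, 11.2, 54.1, 0.987 and 0.632 CPM (adjusted p = 0.135). The cornified envelope gene Sprr1a rose (log2 fold change 6.11, SE 0.94, adjusted p = 6.01e-04) from 1.52, 4.26 and 0 CPM in tissue to 45.5 to 314 CPM (median 99.2), and all tumors lay above the tissue. Because tumors under the skin can include skin, keratinocyte and hair genes were listed separately. They were at 21.3, 17 and 18.3 CPM in the tissue samples and 19.1, 857, 68.4, 254, 3.95 and 3.79 CPM in tumors 1 to 6, 0 of 4 tested members passed, and Krt10, which marks the layers above the basal one, was at 5.06, 251, 19.1, 25, 3.29 and 2.53 CPM in the tumors. The part of skin in the keratins of tumors 2 and 4 was not tested.

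Contractile genes of smooth muscle, which forms the wall of the organ, fell. Of 27 members tested 17 fell and 1 rose, with a median of -2.28, and the summed level went from 11658, 11306 and 9395 CPM in tissue to 1201 to 6295 CPM (median 2372) in tumors. Myh11, the smooth muscle myosin heavy chain, was at 1991, 1505 and 1284 CPM in tissue and 2.68 to 13.5 CPM (median 7.19) in tumors (log2 fold change -7.63, SE 0.42, adjusted p = 2.29e-06). Synpo2, an actin-binding protein of smooth muscle, was at 141, 152 and 91.5 CPM and 0 to 0.658 CPM (median 0.461) (log2 fold change -7.96, SE 0.36, adjusted p = 7.07e-07). Both genes had low values in every tumor, and no tumor came near the tissue. Cnn1, calponin, fell by 5.60 on the log2 scale, from 99.8, 146 and 118 CPM to 0 to 5.27 CPM (median 2.03) (adjusted p = 4.03e-05). Acta2, smooth muscle actin, which activated fibroblasts also make, kept more, at 3514, 3702 and 3598 CPM in tissue and 171 to 811 CPM (median 535) in tumors (log2 fold change -2.85, SE 0.44, adjusted p = 6.23e-04). The higher sums of tumors 5 and 6, 6295 and 4186 CPM, came in good part from genes that striated muscle also expresses. Tpm1, a tropomyosin, was at 2445 CPM in tumor 5 against 271 to 510.2 CPM in tumors 1 to 4 and 473, 411 and 350.4 CPM in tissue. Hspb6, a small heat shock protein of muscle and the single member that rose (log2 fold change 2.89, SE 1.04, adjusted p = 0.0429), was at 760.5 and 380.1 CPM in tumors 5 and 6 and 28.2, 39.7 and 35.3 CPM in tissue, and its adjusted p was 0.0586 and 0.0657 without tumor 5 or 6. Serum response factor binds a CArG box, and 1 of 13 promoters of the contractile genes that fell held one (7.69%), against 4.55% of the 22 promoters of all listed members and 1.68% of tested genes with a promoter.

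Vessels were present on both sides. The endothelial list summed to 431 to 435 CPM in tissue and 398 to 651 CPM in tumors, and of 23 members tested 4 rose and 3 fell, with a median of -0.17 that turned to 0.15 on library totals alone. Pecam1, an adhesion molecule of all endothelium, fell from 67.8, 53.9 and 57.5 CPM to 14.3 to 36 CPM (median 25.5) (log2 fold change -1.26, SE 0.27, adjusted p = 0.00405), with every tumor below every tissue sample. Cdh5, VE-cadherin, was at 16.8, 25.5 and 32.7 CPM and 6.25 to 76.5 CPM (median 17.8) (adjusted p = 0.956), and Plvap, of fenestrated vessels, at 43.4, 26.9 and 37.9 CPM and 22.4 to 63.1 CPM (median 50.3) (adjusted p = 0.425). Tumor 6 held the highest Cdh5, and the groups overlapped for both genes. Cd93, a receptor of growing vessels that myeloid cells also express, rose from 32.8, 29.8 and 22.2 CPM to 90.4 to 191 CPM (median 124) (log2 fold change 2.21, SE 0.28, adjusted p = 1.94e-04). Of 8 pericyte genes tested 4 fell and 1 rose, with a median of -1.42. Rgs5, the best-known pericyte marker, was at 45.7, 48.2 and 18.3 CPM in tissue and at most 3.16 CPM in a tumor (log2 fold change -4.20, SE 0.49, adjusted p = 1.27e-04).

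The tumors held far more matrix transcripts than the organ. Of 49 fibrillar and matricellular genes tested 30 rose and 3 fell, with a median of 1.69, and the summed level was 9420.2, 8923 and 13865 CPM in tissue against 39735, 74636, 29424, 92495, 27683 and 40605 CPM in tumors 1 to 6. Every tumor lay above the tissue samples, and tumors 2 and 4 were the highest. In culture, organoids grown from tumors held 664 to 35187 CPM of this list and the TBP clones 582 to 650 CPM. How much of the tumor signal came from mutant cells was not tested. Col1a1, a chain of type I collagen, was at 347, 277 and 574 CPM in tissue and 1883 to 13579 CPM (median 4673) in tumors (log2 fold change 4.02, SE 0.68, adjusted p = 0.00107). Col3a1, which forms fibrils with it, was at 1960.2, 1947 and 3328 CPM and 5648 to 29084 CPM (median 11480.4) (log2 fold change 2.51, SE 0.53, adjusted p = 0.00373). Fn1, fibronectin, was at 245, 218 and 230.1 CPM and 834 to 4044 CPM (median 2104) (log2 fold change 3.31, SE 0.51, adjusted p = 6.20e-04), and its order among tumors differed, with tumor 1 the lowest at 834 CPM. Postn, periostin, a matricellular protein of remodeling stroma, was at 52.6, 59.6 and 40.5 CPM and 464 to 1255 CPM (median 962) (log2 fold change 4.12, SE 0.42, adjusted p = 6.02e-05). Col8a1, a short-chain collagen of injured vessels, rose from at most 8.38 CPM in a tissue sample to 104 to 246 CPM (median 154) (log2 fold change 5.26, SE 0.63, adjusted p = 1.41e-04).

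Some matrix genes were close to absent from the organ. Tnc, tenascin C, which adult tissue makes mainly in wounds and tumors, was at 4.57, 4.26 and 2.62 CPM in tissue and 284, 46.4, 218, 200.3, 289 and 379 CPM in tumors 1 to 6 (log2 fold change 5.89, SE 0.72, adjusted p = 1.58e-04). Tumor 2 was the lowest and still lay well above the tissue. Lrrc15, a surface protein of activated fibroblasts, had no count in tissue and was at 289.7, 47.3, 141, 41.1, 11.8 and 121 CPM in tumors 1 to 6, at least 101-fold higher (adjusted p = 0.0052). Fap, another gene of activated fibroblasts, had 1 count over the tissue samples and 3.57 to 11 CPM (median 7.37) in tumors (ratio of tumors to tissue 20.3, 95% counting interval 3.64 to 802, adjusted p = 0.0029), and with tumor 5 or 6 left out it no longer passed the low-count filter. The wider fibroblast list went both ways. Of 19 members tested 5 rose and 5 fell, near the shares of all genes tested, with a median of 0.59. Ly6a, a surface antigen of progenitors and stromal cells, rose from 34.3, 34 and 20.9 CPM to 170.3 to 365 CPM (median 251) (log2 fold change 3.06, SE 0.32, adjusted p = 6.38e-05), while Pdpn, podoplanin, fell from 245, 219.8 and 292 CPM to 27.4 to 87.8 CPM (median 45.8) (log2 fold change -2.37, SE 0.34, adjusted p = 3.72e-04). Neither gene overlapped between the groups. Igf1, a growth factor of stromal cells, fell from 153, 119 and 324 CPM to 23 to 73.1 CPM (median 39.3) (log2 fold change -2.25, SE 0.36, adjusted p = 7.98e-04). Of 21 basement membrane genes tested 4 rose and 4 fell, with a median of 0.13.

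Enzymes that cut matrix rose with it. Of 32 proteases and inhibitors tested 19 rose and 3 fell, with a median of 1.77. Mmp13, a collagenase, had 1 count over the tissue samples and was at 5.69 to 76.1 CPM (median 39.2) in tumors (ratio of tumors to tissue 104, 95% counting interval 18.7 to 4107, adjusted p = 0.00321), and tumors 5 and 6, at 12.2 and 5.69 CPM, were the lowest. Mmp2, a gelatinase of stromal cells, rose from 43.4, 44 and 68 CPM to 158 to 814 CPM (median 309) (log2 fold change 2.91, SE 0.54, adjusted p = 0.00173), and Timp1, an inhibitor of these enzymes, from 9.9, 17 and 6.54 CPM to 74.6 to 199 CPM (median 169) (log2 fold change 3.72, SE 0.48, adjusted p = 2.18e-04). Plaur, the receptor of urokinase, had 1 count over the tissue samples and 5.36 to 15.2 CPM (median 13) in tumors (ratio of tumors to tissue 31.7, 95% counting interval 5.68 to 1250.1, adjusted p = 6.59e-04). Timp4, an inhibitor of restricted tissues, went the other way, from 161, 282 and 109 CPM in tissue to 2 counts in tumor 1 and none elsewhere (ratio of tissue to tumors 1038, 95% counting interval 287 to 8571, adjusted p = 5.99e-06).

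Genes of epithelial to mesenchymal transition are shared with stroma, so their source in a whole tumor cannot be told from these libraries. Of 19 tested 9 rose and 2 fell, with a median of 1.28. The summed level was 1081 to 1195 CPM in tissue and 2041 to 7026 CPM in tumors. Organoids grown from tumors held 445 to 3967 CPM in culture, and the TBP clones 291 to 515 CPM. The part of mutant cells in the tumor signal was not tested. Twist1, a transcription factor of mesenchyme, rose from 10.7, 12.8 and 11.8 CPM to 30.4 to 114 CPM (median 40.7) (log2 fold change 2.40, SE 0.55, adjusted p = 0.00558), and tumors 2 and 4 held 112 and 114 CPM. S100a4, a calcium-binding protein of motile cells, was at 158, 174 and 71.9 CPM in tissue and 442, 5131, 598, 3779, 1401 and 2346 CPM in tumors 1 to 6 (log2 fold change 4.08, SE 0.88, adjusted p = 0.00397). Tumors 2 and 4 were again the highest, and tumors 1 and 3 the lowest. Vim, vimentin, was at 212, 213 and 245 CPM in tissue and 327, 419.7, 229, 1232, 1034 and 846 CPM in tumors (log2 fold change 1.61, SE 0.53, adjusted p = 0.0299), with tumor 3 inside the tissue range. Its adjusted p was 0.0817 to 0.1 when any 1 tissue sample was left out.

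**Figure D3:**
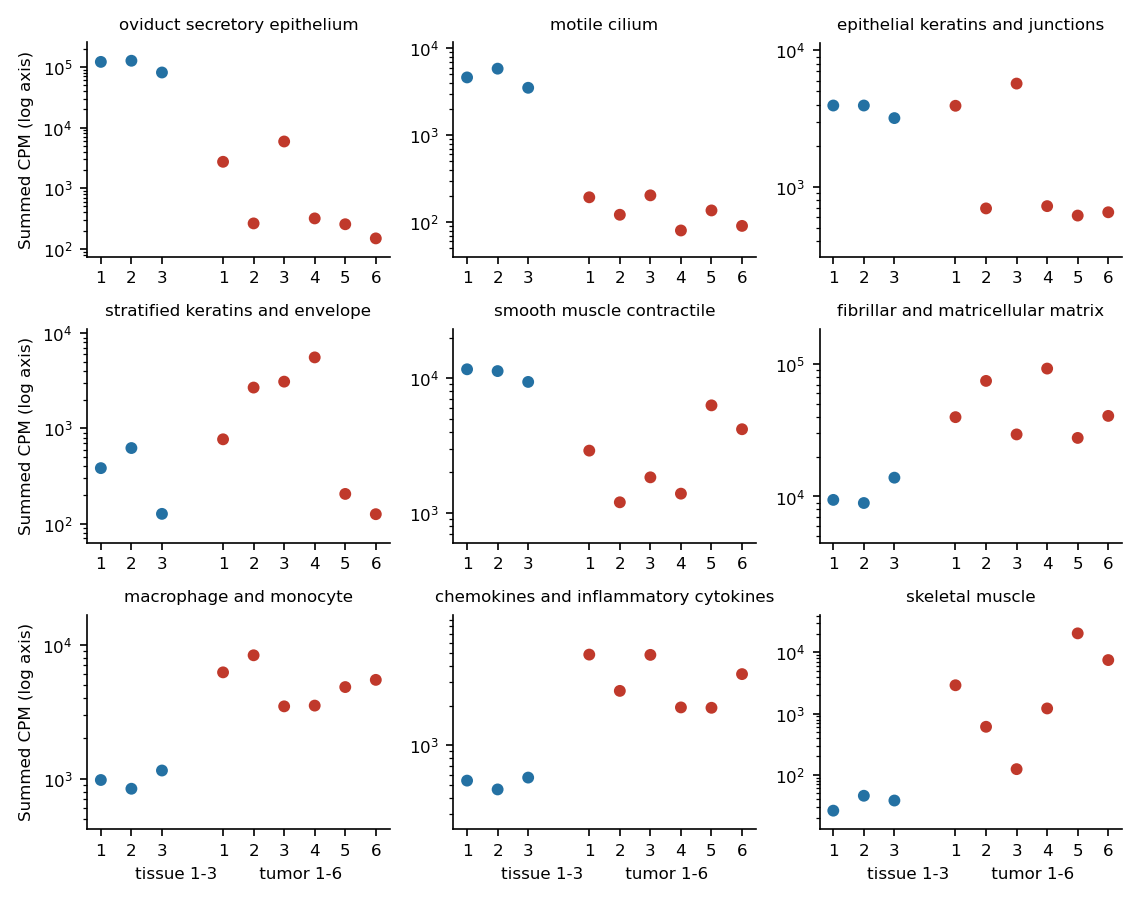
Summed level of 9 gene lists in each library, in CPM on a log axis that differs between panels, with tissue samples 1 to 3 in blue and tumors 1 to 6 in red. The secretory and ciliary sums of all tumors lie below the tissue and the matrix, macrophage and chemokine sums lie above it, whereas keratins and junctions fall to 615 to 721 CPM in 4 tumors and stay at 3921 and 5703 CPM in tumors 1 and 3.

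Macrophage genes rose together. NSG mice lack T, B and natural killer cells and keep myeloid cells, so host macrophages can enter the tumors. Of 36 members tested 29 rose and 0 fell, with a median of 2.80, and the summed level was 977, 841 and 1151 CPM in tissue and 6214, 8333, 3465, 3510.2, 4827 and 5462 CPM in tumors 1 to 6. In culture the same sum was 1504 to 2073 CPM in oviductal organoids, 1965 to 4678 CPM in the Cas9-GFP lines and 1193 to 7684 CPM in the TBP clones. Organoids grown from tumors held 353 to 2507 CPM. The sum therefore cannot be assigned to macrophages alone. Csf1r, the receptor on which macrophages depend, was at 13.7, 25.5 and 23.5 CPM in tissue and 104 to 479.5 CPM (median 220.3) in tumors (log2 fold change 3.51, SE 0.52, adjusted p = 4.92e-04). Tumor 2 was the highest and tumor 3 the lowest, with no overlap between the groups. Emr1, which encodes F4/80, rose from 4.57, 7.09 and 6.54 CPM to 19.8 to 116 CPM (median 53.7) (log2 fold change 3.28, SE 0.57, adjusted p = 0.00118). C1qa, a complement chain made by resident macrophages, rose from 43.4, 39.7 and 36.6 CPM to 59.1 to 321 CPM (median 153) (log2 fold change 2.10, SE 0.47, adjusted p = 0.00478). Cd68, a lysosomal marker of macrophages, had no count in tissue and 14.4 to 33.2 CPM (median 22.7) in tumors, at least 22.2-fold higher (adjusted p = 1.40e-04).

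A lectin and a scavenger receptor were among the members that rose, and Lyz1 and Spp1, which stand in other lists, are given beside them. Clec4n, a lectin for fungal sugars, was at 5.33, 5.67 and 5.23 CPM in tissue and 151 to 453 CPM (median 232) in tumors (log2 fold change 5.64, SE 0.48, adjusted p = 2.60e-05). Msr1, a scavenger receptor, had 3 counts over the tissue samples and 37.1 to 104 CPM (median 77.3) in tumors (ratio of tumors to tissue 71.9, 95% counting interval 24.6 to 348, adjusted p = 4.03e-05). Lyz1, a lysozyme of macrophages and Paneth cells, rose from 24.4, 45.4 and 57.5 CPM to 476 to 1488 CPM (median 1034) (log2 fold change 4.53, SE 0.51, adjusted p = 9.46e-05), a value that may share reads with its near copy Lyz2. All tumors exceeded the tissue for each of these genes. Arg1, arginase 1, often used to mark macrophages, did not pass (30.5, 15.6 and 28.8 CPM in tissue, 21.5 to 389.8 CPM (median 72.4) in tumors, adjusted p = 0.0855). It was also high in organoid cultures without macrophages, at 7191, 3689.9 and 1080.2 CPM in the 3 TBP clones, so its level cannot be assigned to macrophages here. Spp1, osteopontin, had 3 counts over the tissue samples and was at 991, 1145, 2016, 887, 752 and 751 CPM in tumors 1 to 6 (ratio of tumors to tissue 1011, 95% counting interval 346 to 4904, adjusted p = 7.18e-06). Osteopontin comes from macrophages and from carcinoma cells, and the clones held 1288, 1324 and 292 CPM and the oviductal organoids 245, 736 and 743 CPM in culture, so the source of the tumor signal was not separated.

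Neutrophil genes were uneven. Of 7 tested 5 rose and 2 fell, with a median of 7.73, or 5.08 with genes absent from tissue set at their bound. S100a8, a member of the calprotectin pair, had 2 counts over the tissue samples and was at 304, 12.5, 642, 215, 1.97 and 8.85 CPM in tumors 1 to 6 (ratio of tumors to tissue 275, 95% counting interval 76 to 2268, adjusted p = 0.0235). Its partner S100a9 had 1 count over the tissue samples and was at 473, 25.9, 834, 232, 0 and 12.6 CPM in tumors (ratio of tumors to tissue 732, 95% counting interval 131 to 28898, adjusted p = 0.0235). Tumors 1, 3 and 4 were high and tumor 5 was at or near the tissue level for both. Il1b, an inflammatory cytokine of myeloid cells, had 1 count over the tissue samples and was at 398, 12.5, 108, 21, 16.8 and 14.5 CPM in tumors (ratio of tumors to tissue 265, 95% counting interval 47.5 to 10456, adjusted p = 0.0165), with tumor 1 the highest. Leaving out any 1 tissue sample raised the adjusted p to between 0.0596 and 0.102 for these 3 genes. Hdc, which makes histamine in mast cells, basophils and some epithelia, fell from 1815, 1631 and 2082 CPM to 2.96 to 107 CPM (median 11.7) (log2 fold change -5.46, SE 1.02, adjusted p = 0.00182), and nearly all of the neutrophil sum of tissue came from it. Lymphocyte genes were scarce on both sides. Only 2 of 25 were abundant enough to be tested, and the T cell genes Cd3e and Cd3g had no count in tissue or tumors.

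Chemokine and cytokine genes rose. Of 22 tested 16 rose and 0 fell, with a median of 3.36, and the sums were 539, 462 and 569 CPM in tissue and 4881, 2589, 4858, 1939, 1927 and 3471 CPM in tumors 1 to 6. In culture, organoids grown from tumors held 1640 to 4670 CPM of the list, the TBP clones 536 to 727 CPM and the oviductal organoids 806 to 1195 CPM. The cells that gave the tumor signal were not separated. Ccl2, which draws monocytes, was at 55.6, 38.3 and 14.4 CPM in tissue and 365, 663, 137, 208, 829.6 and 2155 CPM in tumors (log2 fold change 4.31, SE 0.99, adjusted p = 0.00554). Ccl7, which shares its receptor, rose from 1.52, 1.42 and 1.31 CPM to 24.9 to 153 CPM (median 67.4) (log2 fold change 5.75, SE 0.85, adjusted p = 4.86e-04), and tumor 6 was the highest for both. Csf1, the ligand of Csf1r, rose from 13, 8.51 and 11.8 CPM to 63.4 to 231 CPM (median 121) (log2 fold change 3.51, SE 0.44, adjusted p = 1.80e-04), with no overlap. Cxcl5, which draws neutrophils, was at 6.09, 0 and 0 CPM in tissue and 1388, 62.5, 3107, 268, 1.65 and 13.9 CPM in tumors (log2 fold change 8.23, SE 2.66, adjusted p = 0.0279). Tumors 1 and 3 carried most of it, tumor 5 lay inside the tissue range, and the adjusted p was 0.0869 to 0.0965 when any 1 tissue sample was left out.

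Interferon-stimulated genes went both ways, with more members lower than higher. Of 37 tested 14 fell and 3 rose, with a median of -0.58. Ifit1, an antiviral effector, fell from 158, 140.4 and 73.2 CPM to 17 to 61.3 CPM (median 32) (log2 fold change -1.89, SE 0.40, adjusted p = 0.00358). Usp18, the feedback inhibitor of the interferon receptor, fell from 33.5, 49.6 and 27.5 CPM to 0.893 to 15.2 CPM (median 3.8) (log2 fold change -2.75, SE 0.62, adjusted p = 0.00495). For both genes the highest tumor was tumor 6, and it lay below every tissue sample. Irf1, which interferon gamma and inflammatory signals induce, rose from 80, 58.2 and 62.8 CPM to 115 to 189 CPM (median 161) (log2 fold change 1.22, SE 0.20, adjusted p = 8.74e-04). The chemokine gene Cxcl10 also rose, from 6.09, 4.26 and 2.62 CPM to 5.76 to 54.4 CPM (median 22.4) (log2 fold change 2.44, SE 0.70, adjusted p = 0.0164), with adjusted p of 0.0558 and 0.0663 without tissue sample 2 or 3.

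The interferon-stimulated response element was searched as TTTCNNTTTC on both strands, and the promoter of Ifit1 is shown as the clearest target of the pathway. The element stood in 4 of 10 promoters of the members that fell, against 3.61% of tested genes with a promoter, and in 59.4% of the 32 promoters of all members in the table. In the window of Ifit1 the first match is in capitals.
Ifit1 (chr19:34640745-34640834, plus strand, GRCm38.p6): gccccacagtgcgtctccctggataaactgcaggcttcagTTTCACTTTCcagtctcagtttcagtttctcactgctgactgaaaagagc

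Few genes of antigen presentation passed the test. Of 14 class I genes tested 1 fell and 0 rose, and the median of 0.03 became 0.35 on library totals alone. B2m, the invariant chain, was at 539, 509 and 435 CPM in tissue and 321 to 709 CPM (median 550.3) in tumors (adjusted p = 0.728). H2-K1, a classical heavy chain whose reads can be shared with its close copies, was at 57.9, 53.9 and 53.6 CPM and 20.7 to 43.9 CPM (median 33.1) (log2 fold change -0.74, SE 0.24, adjusted p = 0.0281), with adjusted p of 0.0683 to 0.093 when any 1 tissue sample was left out. The tissue and the host differ in strain at this locus, and the effect on the mapping of reads was not tested. Of 7 class II genes tested 2 rose and 1 fell. H2-Aa was at 178, 199 and 357 CPM in tissue and 663, 1451, 211, 399, 858 and 1206 CPM in tumors (log2 fold change 1.71, SE 0.57, adjusted p = 0.0323), and tumors 1, 2, 4, 5 and 6 lay above the tissue. Without tissue sample 1 or 2 or tumor 2 or 6 its adjusted p was 0.0511 to 0.124.

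Genes of cell division rose as a group. Of 83 members tested 58 rose and 3 fell, with a median of 1.69. Without tumors 5 and 6, 47 rose and 5 fell. The summed level overlapped, at 5827, 6692 and 5792 CPM in tissue and 4874, 6699, 5539, 8439, 7423 and 8375 CPM in tumors 1 to 6. In that sum tumors 1 and 3 lay below every tissue sample. Mki67, the marker of cycling cells, was at 15.2, 11.3 and 1.31 CPM in tissue and 104 to 158 CPM (median 117) in tumors (log2 fold change 3.64, SE 0.46, adjusted p = 1.91e-04). The tumors were alike, and all exceeded the tissue. Birc5, survivin, rose from 15.2, 18.4 and 7.85 CPM to 70.3, 100, 61.2, 181, 228 and 252 CPM in tumors 1 to 6 (log2 fold change 3.41, SE 0.60, adjusted p = 0.00125), with tumors 4, 5 and 6 the highest. Cdk1, the mitotic kinase, rose from 53.3, 62.4 and 43.1 CPM to 139 to 317 CPM (median 215) (log2 fold change 2.04, SE 0.33, adjusted p = 7.56e-04). Top2a, a topoisomerase of replicating cells, rose from 97.5, 76.6 and 24.8 CPM to 114 to 203 CPM (median 153) (log2 fold change 1.19, SE 0.37, adjusted p = 0.0241), and its adjusted p was 0.0586 without tissue sample 2. The 3 members that fell were Pttg1, securin, from 169, 174 and 276 CPM to 65.3 to 106 CPM (median 74.8) (log2 fold change -1.34, SE 0.22, adjusted p = 9.15e-04), Hmgn2, a nucleosome-binding protein, and Tuba1b, an alpha tubulin (log2 fold change -1.62, SE 0.28, adjusted p = 0.00122 and log2 fold change -1.02, SE 0.22, adjusted p = 0.00351). Hmgn2 and Tuba1b encode abundant proteins that cells outside the cycle also make. The E2F site was searched as TTTCCCGC on both strands and stood in 3 of 51 promoters of the members that rose (5.88%), against 8 of 75 (10.7%) of all listed members in the table and 2.32% of tested genes with a promoter.

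**Figure D4:**
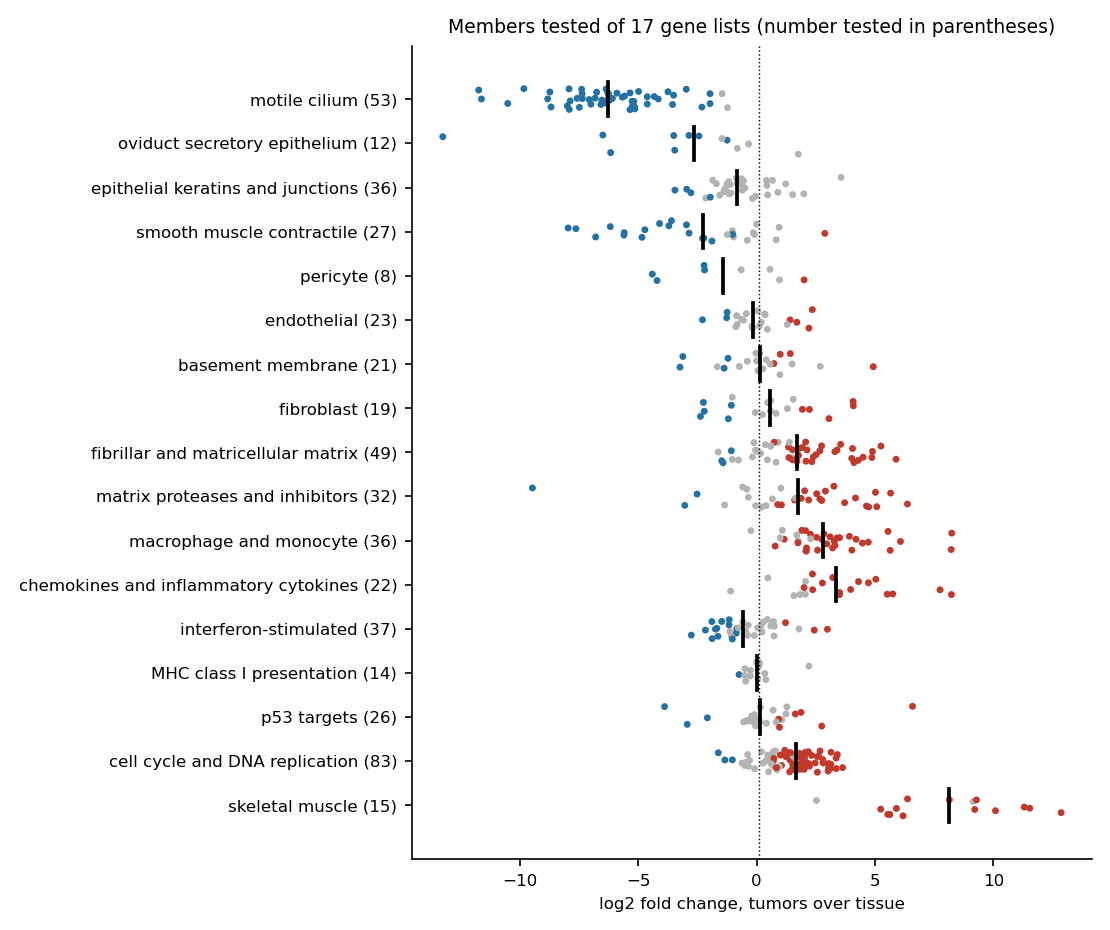
Log2 fold change of tumors over tissue for the tested members of 17 gene lists, 1 point per gene, with members called higher in red, called lower in blue and the others in gray, the median of each list as a black bar and the median of all genes tested as a dotted line. The motile cilium lies farthest to the left at a median of -6.26 and skeletal muscle farthest to the right at 8.14 (6.38 with genes absent from tissue set at their bound), while presentation by class I and targets of p53 center on the dotted line at 0.08.

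Small indels need not change the number of 3′ tags, so the level of a targeted gene in the tumors is given as a value and checks no label. Trp53 was at 25.1, 21.3 and 27.5 CPM in tissue and 25.3, 36.6, 19.5, 27, 36.5 and 58.8 CPM in tumors 1 to 6 (log2 fold change 0.46 ± 0.34 SE, adjusted p = 0.3), and the groups overlapped. In culture, the 3 TBP clones held 0, 0.584 and 5.37 CPM against 55.2, 36.8 and 64.9 CPM in unedited Cas9-GFP oviductal organoids (log2 fold change -3.97, adjusted p = 0.015, edgeR). Clone 1 had only 82239 counts, and 3 counts correspond to 33.6 CPM there, against 1.75 and 0.732 CPM in clones 2 and 3, so its 0 for Trp53 allows a level of up to 33.6 CPM. Brca1, a DNA repair gene that cycling cells express, had 2 counts over the tissue samples and was at 7.24 to 19.1 CPM (median 9.58) in tumors (ratio of tumors to tissue 15.1, 95% counting interval 4.18 to 125, adjusted p = 0.00142). It moved with the cell division list, and the part of that list in it was not tested.

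Targets of p53 showed no common direction. Of 26 tested 6 rose and 3 fell, with a median of 0.15, close to that of all genes. Cdkn1a, which encodes the cell cycle inhibitor p21, was at 112, 118 and 106 CPM in tissue and 67.1 to 163 CPM (median 105) in tumors (adjusted p = 0.908), and Mdm2, the ligase that degrades p53, was at 69.3, 80.8 and 58.8 CPM and 47.1 to 90.2 CPM (median 57.2) (adjusted p = 0.51). The groups overlapped for both genes. Pmaip1, which encodes the death factor Noxa, had 1 count over the tissue samples and 20.5 to 83.2 CPM (median 39.1) in tumors (ratio of tumors to tissue 117, 95% counting interval 21.1 to 4635, adjusted p = 3.66e-04). Bax, another death factor, rose from 11.4, 14.2 and 10.5 CPM to 30 to 43.6 CPM (median 38.3) (log2 fold change 1.64, SE 0.23, adjusted p = 3.76e-04), and Ephx1, a detoxifying hydrolase, fell from 287, 325 and 401 CPM to 26.6 to 87.5 CPM (median 39.5) (log2 fold change -2.93, SE 0.34, adjusted p = 1.21e-04). Cdkn2a, the locus of the inhibitors p16 and p19Arf that cells without p53 often derepress, was at 2.29, 8.51 and 0 CPM in tissue and 55.1, 97.3, 53.7, 94.1, 79.3 and 104 CPM in tumors 1 to 6 (log2 fold change 4.56, SE 0.61, adjusted p = 2.62e-04). All tumors exceeded the tissue and lay within a narrow range, and the oviductal organoids without the Cas9-GFP cassette, at 109, 117 and 145 CPM, lay above it.

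Epithelium in culture gave a comparison that shares no library with the tumors. Between 3 TBP clones and 3 Cas9-GFP organoid lines 7708 genes were tested with edgeR, and 30 (0.389%) were higher and 33 (0.428%) lower in clones, 0.817% in all. The study describes a pair of independent clones per combination of mutations, so some of the 3 clone libraries may share a clone. Here, and wherever clones are compared in this report, p-values therefore measure the spread between these libraries. The counts depended on which library was left out. Without any 1 of the Cas9-GFP lines 0 genes were higher and 3 to 11 lower. Without clone 2 there were 77 higher and 131 lower, and without clone 3 there were 46 higher and 37 lower. Without clone 1, the library with the fewest counts, they stayed close, at 28 higher and 35 lower. Of genes described for the tumors, Cdkn2a was higher in clones at 22.4, 43.8 and 61 CPM against 6.02, 3.68 and 5.69 CPM (log2 fold change 3.15, adjusted p = 0.0134), and so was Pmaip1 at 302, 445 and 369 CPM against 79.3, 95.6 and 114 CPM (log2 fold change 1.99, adjusted p = 0.015). Pifo was lower in clones, at 11.2, 0.584 and 0.976 CPM against 11, 14.7 and 19.3 CPM (log2 fold change -3.74, adjusted p = 0.0397). Wfdc18 went opposite ways, being higher in clones at 22.4, 35 and 176 CPM against 5.02, 5.52 and 0 CPM (log2 fold change 4.72, adjusted p = 0.0266) and lower in tumors than in tissue. Ovgp1 was at 0, 75.3 and 53.9 CPM in clones and 82.3, 101 and 70.5 CPM in the Cas9-GFP lines, against 24031, 21124 and 15491 CPM in the other oviductal organoids. In clone 1, 3 counts correspond to 33.6 CPM. Its values for Cdkn2a, Pifo and Wfdc18 were therefore fewer than 3 counts, and its 0 for Ovgp1 allows a level of up to 33.6 CPM.

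Genes of low oxygen and glycolysis leaned upward. Of 38 tested 14 rose and 4 fell, with a median of 0.66. Hk2, the hexokinase of growing and hypoxic cells, rose from 9.14, 14.2 and 6.54 CPM to 45.5 to 109.9 CPM (median 61) (log2 fold change 2.79, SE 0.38, adjusted p = 2.92e-04). Bnip3, a mitophagy receptor induced by low oxygen, was at 65.5, 56.7 and 57.5 CPM in tissue and 109, 149, 521, 272, 366 and 112 CPM in tumors (log2 fold change 2.09, SE 0.55, adjusted p = 0.0108). Tumor 3 was the highest and no tumor overlapped the tissue. Vegfa, the vascular growth factor, was at 96, 139 and 103 CPM and 109 to 311 CPM (median 227) and did not pass (adjusted p = 0.068). The members that fell included Slc2a3, a glucose transporter, from 91.4, 83.7 and 154 CPM to 2.25 to 9.87 CPM (median 4.85) (log2 fold change -4.29, SE 0.37, adjusted p = 2.83e-05), and Aldoc, an aldolase isoform, from 419.8, 366 and 465 CPM to 8.22 to 53.6 CPM (median 18.1) (log2 fold change -3.89, SE 0.54, adjusted p = 3.37e-04). Among 23 immediate early and stress genes, which also respond to handling of tissue, 10 rose and 2 fell. Egr1 rose from 8.38, 12.8 and 27.5 CPM to 40.1 to 96.4 CPM (median 62.2) (log2 fold change 2.02, SE 0.43, adjusted p = 0.00381), whereas Hspa1a, an inducible chaperone, fell from 18.3, 19.9 and 24.8 CPM to 0.36 to 8.93 CPM (median 2.98) (log2 fold change -2.69, SE 0.68, adjusted p = 0.0094). Jun, a component of the AP-1 factor, fell from 1089, 974 and 1389.9 CPM to 400.2 to 899.7 CPM (median 696) (log2 fold change -0.73, SE 0.24, adjusted p = 0.0291), with adjusted p of 0.0638 and 0.126 without tissue sample 1 or 3.

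Genes of Wnt and Notch signaling went both ways, at shares near those of all genes tested. Of 28 Wnt and Notch genes tested 6 rose and 8 fell, with a median of -0.29 that turned to 0.022 on library totals alone. Rspo3 and Rspo1 encode R-spondins, which amplify Wnt signals and come from stroma. Rspo3 was at 76.2, 55.3 and 85 CPM in tissue and had 2 counts over the tumors (ratio of tissue to tumors 407, 95% counting interval 113 to 3364, adjusted p = 7.18e-06). Rspo1 was at 35, 21.3 and 37.9 CPM and 0 to 1.13 CPM (median 0.496) (log2 fold change -5.53, SE 0.48, adjusted p = 2.85e-05). Dkk3, a secreted relative of Wnt inhibitors, fell from 339.8, 330.5 and 249.7 CPM to 7.9 to 47.8 CPM (median 25.5) (log2 fold change -3.62, SE 0.46, adjusted p = 2.00e-04), and no tumor reached the tissue for these 3 genes. Wnt5a, a ligand of stroma and epithelium, fell from 85.3, 58.2 and 102 CPM to 3.29 to 25 CPM (median 14.4) (log2 fold change -2.52, SE 0.52, adjusted p = 0.00327). In culture it was also lower in the TBP clones, at 0, 0.584 and 0 CPM against 104, 55.2 and 68.3 CPM in the Cas9-GFP lines (ratio of Cas9-GFP lines to clones 448, 95% counting interval 80.4 to 17701, adjusted p = 9.81e-04). The ligand Wnt10a rose from 0.762, 4.26 and 0 CPM to 13.5 to 107 CPM (median 30.8) (log2 fold change 4.81, SE 1.03, adjusted p = 0.00381), and Lgr5, a receptor for R-spondins and a Wnt target, had 2 counts over the tissue samples and 6.25 to 23.1 CPM (median 11.3) in tumors (ratio of tumors to tissue 17.2, 95% counting interval 4.75 to 142, adjusted p = 0.00358).

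Growth factor receptors changed in both directions. Of 20 genes tested in the EGF, IGF and FGF families 6 rose and 6 fell, with a median of 0.22. Fgfr1 rose from 35.8, 22.7 and 39.2 CPM to 88.3 to 354 CPM (median 209) (log2 fold change 2.75, SE 0.50, adjusted p = 0.00155), while Fgfr2 fell from 105, 87.9 and 124 CPM to 2.96 to 21.4 CPM (median 8.52) (log2 fold change -3.38, SE 0.45, adjusted p = 2.54e-04). Fgfr1 is mainly a receptor of mesenchyme and Fgfr2 mainly one of epithelium, and neither overlapped between the groups. Fgf1, a ligand of both, fell from 455, 362 and 429 CPM to 2 to 51.2 CPM (median 13.4) (log2 fold change -4.39, SE 0.76, adjusted p = 0.00114). Egfr, the EGF receptor, rose from 1.52, 4.26 and 1.31 CPM to 8.85 to 30.9 CPM (median 16.1) (log2 fold change 2.93, SE 0.58, adjusted p = 0.00247), and Igfbp5, which binds insulin-like growth factors, fell from 389, 326 and 449.8 CPM to 21 to 78.8 CPM (median 31) (log2 fold change -3.11, SE 0.41, adjusted p = 2.37e-04). Gstm1, a glutathione transferase of the organ, fell from 808, 885 and 935 CPM to 51.5 to 147 CPM (median 70.8) (log2 fold change -3.44, SE 0.30, adjusted p = 2.83e-05).

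Most of the 10 largest rises belonged to genes of skeletal muscle, a tissue that lies beneath the injection site. Of 15 members tested 13 rose and 0 fell, with a median of 8.14, or 6.38 with genes absent from tissue set at their bound. The summed level was 25.9, 45.4 and 37.9 CPM in the tissue samples and 2903, 608, 124, 1213, 20451 and 7489 CPM in tumors 1 to 6. Without tumors 5 and 6, 10 rose and the median was 7.13. Atp2a1, the calcium pump of fast fibers, had no count in tissue and was at 1179.6, 305, 41.1, 607, 10662 and 5079 CPM in tumors 1 to 6, at least 2763-fold higher (adjusted p = 0.0071). Tumor 5 was the highest and tumor 3 the lowest, and the same order held at both ends for the fast myosin Myh4, at 177, 83.9, 2.52, 63.1, 2562 and 682 CPM. Other genes without a count in tissue were Cox6a2, Myh1, Pvalb and Xirp2, of the respiratory chain, the myofibril and the calcium buffer of muscle, at least 339, 187, 219.6 and 94.9-fold higher. Calls of Myh4, Pvalb and Xirp2 were lost, at adjusted p of 0.0586 to 0.0875, when any 1 tissue sample was left out. Mylpf, a fast myosin light chain, had 1 count over the tissue samples and 19.1 to 1799 CPM (median 219.9) in tumors (ratio of tumors to tissue 1351, 95% counting interval 243 to 53375, adjusted p = 0.00466). Ckm, muscle creatine kinase, had no count in tissue and 0.36 to 170.1 CPM (median 12) in tumors and did not pass (adjusted p = 0.0561). Ankrd1, a stress-induced ankyrin repeat protein of striated muscle and of other cells, had no count in tissue and was at 131, 62.5, 71, 52.1, 1002 and 932 CPM in tumors, at least 348-fold higher (adjusted p = 0.00685), and tumors 5 and 6 were again the highest.

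Cells of the ovary and of the body cavity could accompany a dissected oviduct. Of 9 genes of ovarian surface and mesothelium tested 4 fell and 0 rose, and the tissue held 552 to 773 CPM of them in sum against 105 to 613 CPM in tumors. Of 4 granulosa, steroidogenic and oocyte genes tested 3 fell and 1 rose, and the tissue held 114 to 373 CPM of that list in sum. Cultured oviductal epithelium also held both lists. The ovarian surface and mesothelial sum was 597 to 695 CPM in oviductal organoids and 894 to 1060 CPM in the Cas9-GFP lines. The granulosa, steroidogenic and oocyte sum was 354 to 582 CPM and 458 to 791 CPM there. The source of the tissue signal was not tested. Hsd3b1, a steroidogenic enzyme, was at 28.9, 155 and 92.8 CPM in tissue and had 1 count over the tumors (ratio of tissue to tumors 1040.3, 95% counting interval 187 to 41091, adjusted p = 1.81e-05), and the egg coat gene Zp3 was at 2.29, 4.26 and 6.54 CPM in tissue and had no count in tumors. Tissue sample 2 was the highest for Hsd3b1, and sample 3 for Zp3. Of 6 fat genes tested 2 rose and 0 fell. Their list summed to 238, 177 and 341 CPM in the tissue samples and 1736, 290, 129, 330, 1825 and 649 CPM in tumors 1 to 6. Tumors 1 and 5 were the highest, and the part of fat beneath the skin was not tested.

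Among the 10 genes with the largest falls, 7 belonged to none of the lists described above. Sox3, a transcription factor of neural and gonadal progenitors, was at 298, 278 and 407 CPM in tissue and at 0 in all tumors, at least 1233-fold lower (adjusted p = 2.74e-05). In culture it was at 174, 57.5 and 51.4 CPM in oviductal organoids and 14.1, 38.6 and 14.8 CPM in Cas9-GFP lines, and it was lower in TBP clones at 0, 0 and 0 CPM, at least 44.2-fold lower against 3 counts over the clones (adjusted p = 0.0134). In clone 1, 3 counts correspond to 33.6 CPM, so its 0 allows a level above the Cas9-GFP mean of 22.5 CPM. Sox3 was thus counted in each cultured oviductal line without TBP mutations. Rnf112, a ubiquitin ligase of brain, was at 414, 629.8 and 120.3 CPM in tissue and at 0 in tumors, at least 1460.1-fold lower (adjusted p = 3.32e-04). Zcchc18 and Caly were at 0 in tumors too, at least 659.8 and 471-fold lower from 168, 167 and 191 CPM and 129, 146 and 101 CPM (adjusted p = 2.35e-05 and 4.04e-05). Calb1, a calcium-binding protein of transporting epithelia, was at 879, 763 and 711 CPM in tissue and had 2 counts in tumor 6 and none elsewhere (ratio of tissue to tumors 4429, 95% counting interval 1226 to 36575, adjusted p = 9.37e-07). BC048546 was at 3926, 3807 and 2364 CPM and 0 to 1.26 CPM (median 0.281) (log2 fold change -12.86, SE 0.60, adjusted p = 7.30e-07), and 2300002M23Rik was at 442, 408 and 311 CPM and had 1 count in tumor 3 (ratio of tissue to tumors 4372, 95% counting interval 785 to 172690, adjusted p = 2.79e-07). All 6 tumors lay below the tissue for each.

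The genes mutated in the host went opposite ways. Il2rg, the cytokine receptor chain that NSG mice lack, was at 6.09, 4.26 and 5.23 CPM in tissue and 12.4, 26.8, 6.84, 44.1, 17.1 and 125 CPM in tumors 1 to 6 (log2 fold change 2.84, SE 1.01, adjusted p = 0.0413), with tumor 6 the highest. Its adjusted p was 0.0509 to 0.117 when any 1 tissue sample or tumor 2 or 4 was left out, and whether the mutant allele gives tags was not tested. Prkdc, the kinase with a point mutation in scid mice, was at 8.38, 11.3 and 9.15 CPM in tissue and 1.97 to 6.19 CPM (median 3.34) in tumors (log2 fold change -1.36, SE 0.42, adjusted p = 0.0227). Its adjusted p was 0.0637 to 0.0984 when any 1 tissue sample was left out, and it no longer passed the low-count filter without tumor 1, 3, 5 or 6. Beta-s, a beta globin gene of red blood cells, was at 813, 956 and 344 CPM in tissue and 343, 129, 145, 375, 215 and 7104 CPM in tumors (adjusted p = 0.568), and tumor 6 alone lay above the tissue.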

How the data were processed

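The data were raw read counts per gene from CEL-Seq2 libraries of 6 TBP tumors and 3 oviduct tissue samples. Per the labels and the methods of the study, the authors sequenced 75 bp paired-end reads on a NextSeq500, aligned them with BWA to GRCm38 transcripts, kept uniquely mapped reads in the direction of transcription, and deposited 1 table of counts with no correction for molecular identifiers, so that amplification duplicates remain and counting intervals and floors cover counting error only. The authors used DESeq2 1.18.0. GEO labels hold 2 tumors per record, and the numbers of tumors and tissue samples come from the labels and the column names. The table held 18306 rows, of which 1 spike-in row with 1 count was left out. Gene names were used as deposited, and 16950 matched RefSeq by symbol and 1236 by an older symbol.

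Counts were tested with edgeR 4.0.16 in R 4.3.3 (TMM scaling, filterByExpr, glmQLFit and glmQLFTest, no covariate, Benjamini-Hochberg at 0.05), with only the groups compared in each fit. The filter left 10827 genes. In counts simulated from these 9 libraries with 200 changed genes of 10827, the test called 147 and recovered 141, all with the right sign. In the data 46.1% of genes tested were called, and recovery with so large a share of changed genes was not tested. Values are CPM on the TMM scale, SE is that of the log2 fold change, and a gene without counts in a group was set against a floor of 3 counts over that group. A ratio against 1 to 3 counts carries an exact 95% counting interval. Members of 34 gene lists (895 of 938 genes found) and the lists themselves were chosen with earlier results of these data known, and no set test was run. The text names the 10 largest changes in each direction among called genes with a mean of at least 100 CPM in the higher group and no overlap, the defining genes of each list, the 4 largest called members of a list with a mean of at least 20 CPM, and Trp53, Brca1, Il2rg and Prkdc. Rfx2, Rfx3, Pifo, Ccdc151, C3, Muc1, Krt6a, Trp63, Cd24a, Krt7, Arg1, Lyz1, Csf1, Irf1, Pttg1, Tuba1b, Hmgn2, Cdkn2a, Hspb6, Tpm1, Gstm1, Bnip3, mt-Rnr2, Stk33 and A330021E22Rik were chosen after their values were seen. Part of the results for targeted genes and for list members is not reported here. Promoter sequences are those of RefSeq on GRCm38.p6. Alternatives were DESeq2 1.42.0, other scalings, no filter, all 27 libraries in the fit, tumors of a record summed, each library left out, a replicate block and, added after seeing the data, tumors 5 and 6 left out.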

Additional observations from a re-analysis of the deposited data

Results flagged for a closer look

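Each of the 179 items looked at, the summed levels of the gene lists and the genes named in the text, was searched for a tumor that stood apart from the other 5 on the scale of log2(CPM + 1), by the gap to its neighbor as a share of the range. The test finds 1 in about 20 groups by chance, and 9 of 179 items met it. Tumor 6 stood apart in red blood cell genes, with 7253 CPM summed over the erythroid list against 136 to 378 CPM in the other tumors, and 7104 CPM of Beta-s against 129 to 375 CPM. How much blood each tumor held was not tested. Tumor 2 was low in Tnc, at 46.4 CPM against 200.3 to 379 CPM. The remaining items are genes with 1 or 2 counts in a single tumor and none in the others. These were Dynlrb2 (0.563 CPM), Ccdc151 (1.13 CPM), Timp4 (1.13 CPM) and Hsd3b1 (0.563 CPM) in tumor 1, Calb1 (1.26 CPM) in tumor 6 and 2300002M23Rik (0.36 CPM) in tumor 3.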

How the results depend on the processing

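Depth limits single libraries to about 1 to 4 CPM, and genes without counts in a group are given by a bound and those with 1 to 3 counts by a ratio with its counting interval. The numbers of higher and lower genes were 2583 and 2870 with DESeq2, 2413 and 2541 with RLE size factors, 2364 and 2548 with all libraries in the fit, 2662 and 2785 without a filter, 2565 and 2485 with tumors of a record summed and 2097 and 2150 without tumors 5 and 6. They ran from 1740 to 2502 and from 1874 to 2417 when 1 library was left out. Replicate numbers did not pair the samples (correlations of deviations 0.016, -0.0356 and -0.119), and a replicate block over the 6 libraries that share numbers gave 1600 higher and 1905 lower, against 2021 and 2170 in those libraries without it. For clones against Cas9-GFP lines DESeq2 called 50 higher and 65 lower, and leaving out 1 library gave 0 to 77 higher and 3 to 131 lower.

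List medians moved as follows, and the cause was not tested. With the block the median was -5.56 for the motile cilium, 0.57 for EMT, -2.31 for pericytes, -0.14 for MHC class I, 1.23 for the cell cycle, -0.15 for p53 targets and 0.63 for keratinocytes. On library totals it was 0.35 for MHC class I, 0.46 for p53 targets, 1.04 for immediate early genes and 0.022 for Wnt and Notch, which turned its sign. Without tumors 5 and 6 it was -5.71 for the motile cilium and 2.19 for proteases, and with tumors of a record summed it was 1.17 for neutrophils. Leaving out 1 library gave -6.62 to -5.91 for the motile cilium, 5.71 to 7.99 for neutrophils, 1.01 to 2.91 for antimicrobial genes, -0.40 to 0.25 for EGF, IGF and FGF genes, -2.78 to -1.22 for ovarian surface genes, -3.76 to -2.89 for granulosa genes and 0.38 to 4.80 for keratinocytes. Counts of list members also moved without tumors 5 and 6. They were then 6 higher and 2 lower for EMT and 0 and 21 for smooth muscle. For interferon-stimulated genes they were 2 higher and 17 lower, and for MHC class II 1 and 0. Of named gene values, 1589 kept their direction and side of the threshold, 32 gained and 56 lost the call and 2 reversed under other settings, and 1773, 14, 127 and 1 did so when 1 library was left out. The reversals were of Beta-s, at -1.78 with the block, -1.54 without tumors 5 and 6 and -1.55 without tumor 6, within a range of -1.55 to 1.25 when 1 library was left out.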

Other observations

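Gene families taken by symbol were picked after their values were seen, a few of their members stand in lists above, and their counts are a description. Of 13 intraflagellar transport genes tested, whose products carry cargo along every cilium, 11 fell and 0 rose, with a median log2 fold change of -1.38. Cholesterol synthesis genes had 7 of 13 higher, 0 lower and a median of 0.90. Among 18 Hox genes, which keep the positional identity of cells along the body axis, 6 fell and 0 rose, with a median of -1.30. Glutathione transferases had 7 of 16 lower, 2 higher and a median of -1.70, and ubiquitin-conjugating enzymes had 15 of 29 higher, 2 lower and a median of 0.70. Cytosolic ribosomal proteins had 34 of 72 lower, 6 higher and a median of -0.43. Nuclear genes of oxidative phosphorylation had 32 of 89 lower and 11 higher, and their median of -0.23 turned to 0.09 on library totals alone.

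Medians by chromosome were taken over 8933 genes, as the log2 ratio of each tumor to the mean of tissue minus that of all genes in the tumor. Chromosome 4 was at -0.47 to -0.20 in the 6 tumors, with 16.2% of its 536 genes called higher and 29.9% lower against 25.3% and 22.3% of all these genes. Chromosome 7 was at -0.41 to -0.06 and chromosome 12 at -0.38 to -0.08. Chromosome 3 was at 0.03 to 0.36 and chromosome 8 at 0.08 to 0.44. The 3 TBP clones and 4 organoid lines grown from tumors, set against the Cas9-GFP lines, had chromosome 4 at 0.0081 to 0.56, chromosome 12 at -0.12 to 0.33, chromosome 3 at -0.084 to 0.29, chromosome 8 at -0.16 to 0.49, and chromosome 7 at -0.53 to -0.034. Cell composition differs between tumors and tissue, and its part in these medians was not tested.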
